A study of Mus musculus with 15 samples.

Results

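The genes described here encode the proteins of the mitochondrial ribosome, taken as every gene whose symbol in the array's annotation starts with Mrpl or Mrps followed by a digit. The array held 110 probes for 76 such genes, out of 16593 named genes in all. Of these, 97 probes and 70 genes passed a filter on detection, which asked for a detection p-value under 0.05 on at least 5 of the 15 arrays. The 70 genes were 45 of the large subunit and 25 of the small subunit, and they were compared among 9470 features, each a gene through its brightest probe or a probe unnamed here. Total RNA came from the gastrocnemius, a large and mostly fast calf muscle, of male C57BL/6 mice, C57BL/6J from a commercial breeder. Young mice were 5 months old, middle-aged mice 17 months and old mice 28 months, with 5 animals at each age and 1 Illumina MouseRef-8 bead array for each animal. All mice were housed 4 to a cage with free access to chow, and the labels name no treatment or mutation. The comparisons ask how far the genes of this machinery moved over the age range, and whether they moved before or after 17 months.

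Mitochondria carry their own ribosome, which makes the few proteins that mitochondrial DNA encodes, all of them core subunits of the respiratory chain and the ATP synthase. Its RNAs come from mitochondrial DNA, but all of its proteins are encoded in the nucleus, made in the cytosol and imported. Some of these proteins descend from bacterial ribosomal proteins, while others have no bacterial counterpart. Skeletal muscle, with its dense mitochondria, depends on this ribosome to renew oxidative phosphorylation, and inherited faults in several of its proteins cause severe disease of muscle, heart or brain in humans.

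All values below are log2 intensities after background correction and quantile normalisation, every difference is on the log2 scale, and each ± after a difference is its standard error. Each level is a relative one, and each difference compares a probe only with itself across arrays. The summed intensities given further below add up different probes, so bright probes weigh most in them. The number of arrays limits the precision: the standard error of a member's difference between 2 ages ran from 0.0923 to 0.25, with a median of 0.142. Each p-value measures only the spread between these mice.

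Before the comparisons, 1 array has to be set apart. Over all 9470 features, the spread of an array's deviations from each feature's mean was 0.563 (SD) in old replicate 3 and between 0.197 and 0.338 in the other 14 arrays. Between 11534 and 12593 of 25697 probes were detected on an array, old replicate 3 among them with 12029, and 95 to 98 of the 110 member probes were. All 12 muscle markers, among them Acta1, Ckm and Myh4, were detected on all 15 arrays, and 0 of them were called in old against young by limma, with 1 of 12 at an unadjusted p under 0.05. Medians over the members and over groups of genes in old muscle are therefore given with and without old replicate 3.

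The mitochondrial ribosomal protein genes were close to their own means on 14 of the 15 arrays and low on old replicate 3. The median deviation of the 70 genes was 0.07, 0.05, 0.11, 0.04 and 0.06 in young replicates 1 to 5. It was 0.03, 0.07, 0.09, 0.03 and -0.02 in middle-aged replicates 1 to 5, and 0.00, 0.07, -0.45, -0.01 and -0.14 in old replicates 1 to 5. Old replicate 3 thus lay below every other array, and old replicate 5 was the next lowest. Old replicate 1 (0.00) and old replicate 4 (-0.01) lay below all young arrays. Of the middle-aged arrays, only middle-aged replicate 5 (-0.02) was lower than these. Old replicate 2 (0.07) lay among the young arrays.

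On old replicate 3, 9 of the 70 genes lay above their own means, and 44 of the 70 (62.9%) had their lowest value of the 15 arrays, against 26.9% of all features. Mrpl23, a protein at the exit of the peptide tunnel, had 10.98 on that array, while its other 4 old values lay between 11.81 and 12.38. A few genes ran the other way: Mrpl50, specific to the mitochondrial large subunit, was highest there, at 11.88 against 10.92 to 11.29 on the other 14 arrays, and so was Mrpl35, a homologue of bacterial L35, at 8.26 against 7.37 to 7.80. These 3 genes were chosen after their values were seen.

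**Figure D1:**
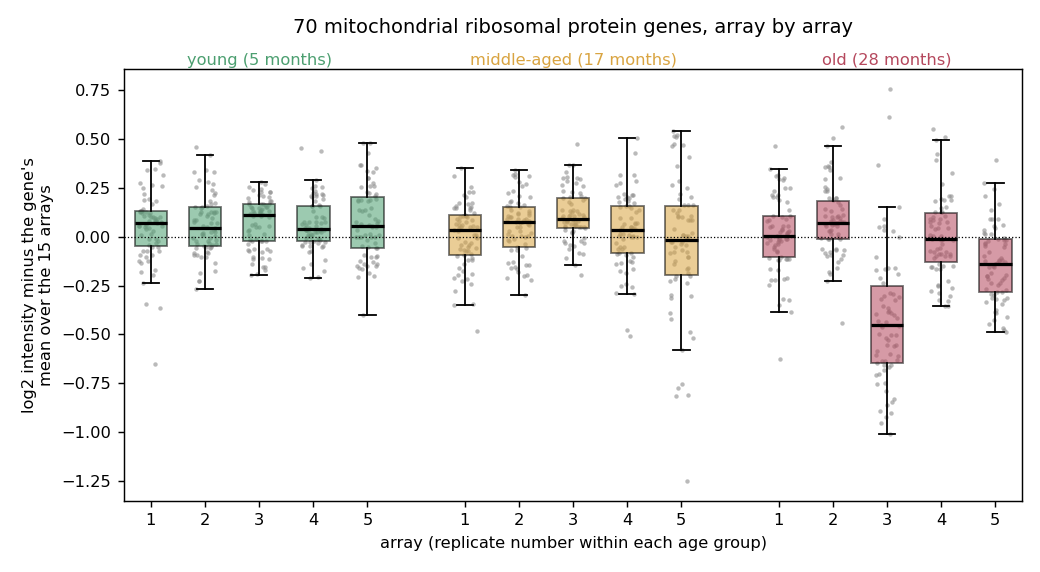
Deviation of each of the 70 genes (grey points) from its own mean over the 15 arrays, on the log2 scale, by array. Boxes give the median and quartiles and whiskers the range within 1.5 times the box, and the box of old replicate 3, with its median at -0.45, lies below those of the other 14 arrays.

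Fewer of these transcripts per cell and fewer cells that carry them cannot be told apart in RNA of whole muscle. In old against young muscle, the 70 genes had a median difference of -0.16, with the middle range of genes from -0.26 to -0.06, and 59 of 70 had a lower mean in old muscle. The median over all features was -0.02, with 53.2% lower. Without old replicate 3 the median of the members was -0.06 and 48 of 70 were lower, so this array moved the median by more than 1.5 times. The changes of single genes were small: the lowest difference was -0.47 and the highest 0.27.

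Of the 70 genes, 1 was called in old against young at an adjusted p under 0.05 by limma, which is 1.43% of the members, while 3.31% of all features were called. At an unadjusted p under 0.05 there were 14 of 70 (20%), close to the 18.9% of all features. Of these 14, 13 were lower in old muscle, which is 18.6% of the members, against 10.2% of all features that were lower at that threshold. The 5 old and 5 young arrays did not overlap in 3 of 70 genes (4.29%), against 4.67% of all features, and all 3 were lower in old, against 2.51% in that direction. Without old replicate 3, 2 of 70 genes were called, against 4.62% of all features, and 9 of 70 (12.9%) were lower at an unadjusted p under 0.05, against 9.73%. In either direction 10 of 70 (14.3%) reached that p, while of 9398 features 914 were lower and 956 higher at it.

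Mrps22, a mitochondrion-specific protein of the small subunit whose mutation in humans causes a combined deficiency of oxidative phosphorylation, was the gene that fell. Its level was 9.47, 9.67, 9.56, 9.68 and 9.72 in young replicates 1 to 5, then 9.67, 9.54, 9.51, 9.40 and 9.56 in the middle-aged arrays, and 9.11, 9.37, 9.01, 9.39 and 9.25 in the old arrays. All 5 old arrays lay below all 10 of the others, and the young and middle-aged arrays overlapped. Mrps22 averaged 9.22 ± 0.16 in old muscle and 9.62 ± 0.10 in young muscle (SD, n = 5 each), 1.32-fold lower in old (log2 -0.40 ± 0.11, adjusted p = 0.0487 by limma). The adjusted p lay just inside the threshold, and Mrpl51, the next gene, just outside it. When old replicate 3 was left out, Mrps22 gave -0.34 ± 0.09 (adjusted p = 0.047). The call was lost without any 1 of the young arrays, the middle-aged arrays, or old replicates 1 and 4, and the adjusted p then lay between 0.0523 and 0.12.

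Mrpl51, a mitochondrion-specific protein of the large subunit, had the lowest difference of all members, -0.47 ± 0.13 (adjusted p = 0.0599 by limma). Its levels were 7.75, 7.39, 7.68, 7.46 and 7.74 in young arrays, 7.49, 7.37, 7.67, 7.42 and 7.49 in middle-aged arrays, and 6.79, 7.32, 7.30, 7.06 and 7.21 in old arrays. As for Mrps22, all 5 old values lay below the other 10, although old replicates 2 and 3 came close to the lowest of them. Old replicate 3 was not low for this gene, and without it the difference was -0.51 ± 0.13 and passed the test (adjusted p = 0.0306). Another probe of Mrpl51 gave -0.47 ± 0.15 and the third -0.18 ± 0.20.

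Mrps28, the counterpart of bacterial S1, was the third gene whose old and young arrays did not overlap. Its old values were 10.23, 10.39, 9.50, 10.42 and 10.42, and its young values 10.58, 10.61, 10.64, 10.45 and 10.80, which gave -0.42 ± 0.16 (adjusted p = 0.147 by limma). The highest old value, 10.42, lay just below the lowest young one, 10.45, and old replicate 3 stood far below the other 4. Without that array the difference was -0.25 ± 0.11 (adjusted p = 0.193).

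**Figure D2:**
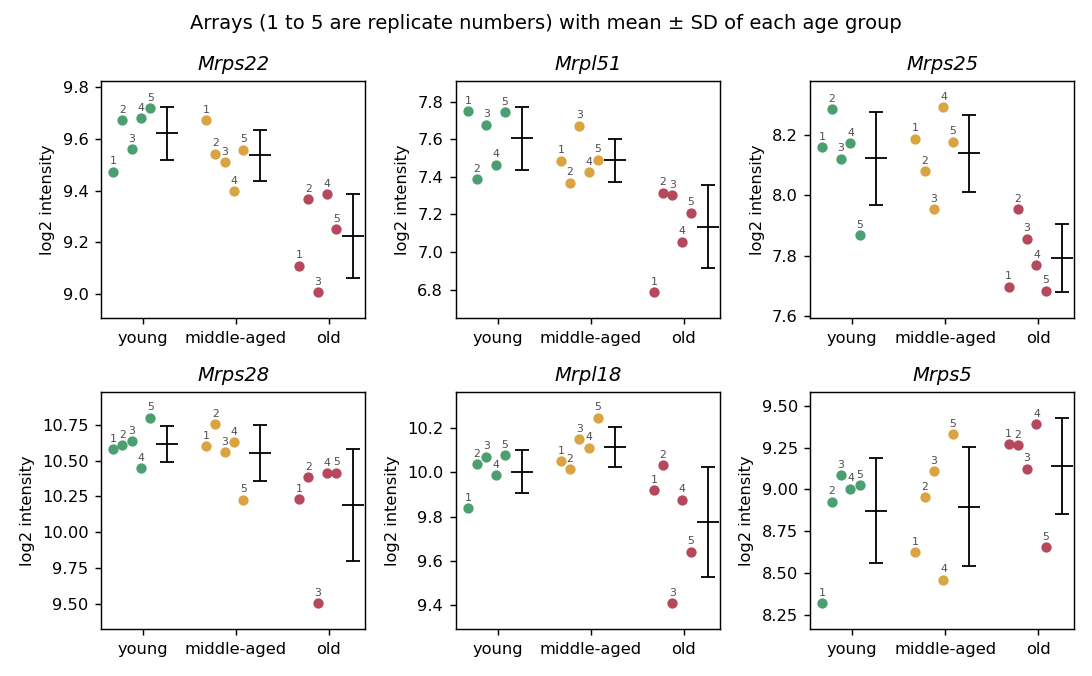
Log2 intensity of 6 genes on each array (points, with the replicate number above) with the mean ± SD of the 5 arrays of an age beside them, by age group from young to old. In Mrps22 and Mrpl51 all 5 old points lie below the other 10, in Mrps28 and Mrpl18 the lowest point is old replicate 3, and in Mrps5 the old mean is the highest of the 3.

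Mrps25, another mitochondrion-specific protein of the small subunit, had old values of 7.70, 7.95, 7.86, 7.77 and 7.68 and young values of 8.16, 8.29, 8.12, 8.17 and 7.87. The difference was -0.33 ± 0.12 (adjusted p = 0.132 by limma), and -0.35 ± 0.11 without old replicate 3 (adjusted p = 0.0889). Young replicate 5 alone fell among the old values. Its other 2 probes gave -0.15 ± 0.16 and -0.30 ± 0.13.

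Mrpl42, specific to the mitochondrial large subunit, gave -0.37 ± 0.13 (adjusted p = 0.139), from 12.24, 12.55, 11.85, 12.13 and 12.62 in old arrays and 12.61, 12.41, 12.70, 12.77 and 12.74 in young arrays. Old replicates 2 and 5 lay among the young values, and without old replicate 3 the difference was -0.26 ± 0.11 (adjusted p = 0.207).

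The proteins with a known site in the ribosome shared these small differences. Mrpl12, the homologue of the bacterial stalk protein that contacts translation factors, had old values of 11.56, 12.16, 11.46, 11.63 and 11.33 and young values between 11.84 and 11.91. Its SD was 0.32 in old and 0.03 in young arrays, and the difference was -0.25 ± 0.13 (adjusted p = 0.298 by limma), with old replicate 2 above every young array and the other 4 old arrays below. Without old replicate 2, the array that ran against the others, the difference was -0.38 ± 0.10 (adjusted p = 0.0399). Of 28 alternative settings this was the 1 in which Mrpl12 was called, so it adds no support. The 5 measured proteins of the stalk had a median difference of -0.17, and 5 of 5 were lower in old.

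Mrpl45, which sits at the tunnel exit and holds the ribosome to the inner membrane, gave -0.32 ± 0.15 (adjusted p = 0.247), at 5.09 ± 0.13 in old muscle and 5.41 ± 0.33 in young muscle (SD, n = 5 each). These are low intensities on this scale, and the other probe of Mrpl45 was detected on 0 arrays. The 6 measured proteins of the exit had a median of -0.13, and 6 of 6 were lower. Mrpl3, close to the centre where peptide bonds form, gave -0.20 ± 0.13 (adjusted p = 0.422). The central protuberance, which holds 6 measured proteins, had a median of -0.20 with 6 of 6 lower, and all 6 were lowest on old replicate 3. Without that array the median was -0.08 for the protuberance, -0.04 for the stalk and -0.03 for the exit, with 6 of 6, 4 of 5 and 4 of 6 lower. Over all members 59 of 70 were lower with that array and 48 of 70 without it.

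In the small subunit, Mrps12, which helps to read the codon, gave -0.19 ± 0.19 (adjusted p = 0.628 by limma), and -0.02 ± 0.16 without old replicate 3. The 7 measured proteins of the head had a median of -0.07, with 5 of 7 lower, and a median of 0.01, with 3 of 7 lower, without that array. Mrps5, a homologue of bacterial S5, had the highest difference of the members, 0.27 ± 0.19 (adjusted p = 0.457), and its other probe gave 0.15 ± 0.12. Its values were 9.27, 9.27, 9.12, 9.39 and 8.66 in old arrays, against 8.32 in young replicate 1 and 8.93 to 9.09 in the other 4 young arrays. Old replicate 5 and young replicate 1 were the low arrays of their groups, and the groups overlapped. Without young replicate 1 the difference was 0.13 ± 0.18 (adjusted p = 0.75).

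Mrpl9, a homologue of bacterial L9 chosen after its values were seen, was the 1 member higher in old muscle at an unadjusted p under 0.05 (0.26 ± 0.12, adjusted p = 0.228). It had 10.85, 10.49, 10.41, 10.38 and 10.44 in old arrays and 10.04, 10.21, 10.21, 10.34 and 10.45 in young arrays, so that 4 of the 5 young values lay below all old ones.

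Of the 3 genes that descend from a single bacterial S18 gene, Mrps18a encodes a protein of the large subunit despite its name, and Mrps18b and Mrps18c encode proteins of the small subunit. Their differences were -0.26 ± 0.14, -0.03 ± 0.12 and -0.07 ± 0.15 (adjusted p = 0.309, 0.929 and 0.855 by limma). Mrps18a had 10.26, 10.39, 9.72, 10.37 and 10.36 in old arrays and 10.38 to 10.61 in young arrays. Without old replicate 3 its difference was -0.13 ± 0.10, and those of Mrps18b and Mrps18c turned to 0.07 and 0.04. Mrps30, also a large subunit protein despite its symbol, gave 0.00 ± 0.12, and its sign changed with the scaling.

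By origin, the median difference between old and young was -0.14 over 26 large subunit proteins with a bacterial homologue and -0.21 over 19 without. It was -0.16 over 15 small subunit proteins with a homologue and -0.13 over 10 without. In the absence of old replicate 3 the large subunit medians were -0.07 with a homologue (20 of 26 lower) and -0.08 without (15 of 19), and the small subunit medians 0.00 (8 of 15) and -0.03 (5 of 10). The large and the small subunit as a whole each had a median of -0.16, with 39 of 45 and 20 of 25 genes lower. With old replicate 3 left out, these medians were -0.07 and 0.00. On that array the median deviation was -0.50 over the large subunit and -0.44 over the small subunit, and 55.6% and 76% of the genes had their lowest value there.

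**Figure D3:**
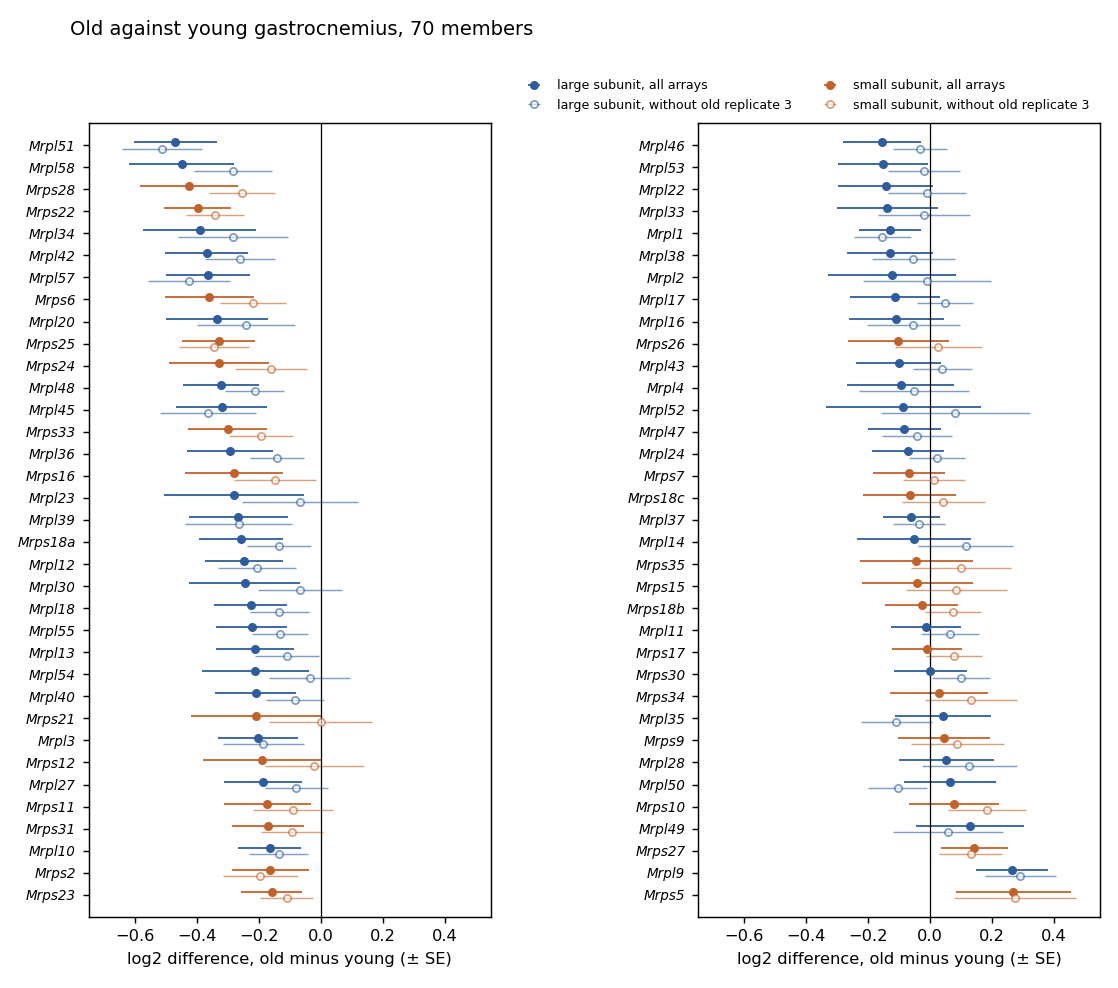
Difference between old and young muscle for each of the 70 genes on the log2 scale, old minus young, ± SE, from the lowest to the highest estimate (left panel first). Filled points use all arrays and open points leave out old replicate 3. Of the 70 genes, 59 filled points and 48 open points lie below 0.

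Other probes of the same genes mostly ran the same way. Of 97 member probes past the filter, 83 had a lower mean in old muscle than in young, and 0 were called when limma was fitted to every probe by itself. For 21 genes with more than 1 such probe, all probes had the same sign in 17, and in 16 of these all were lower. Mrpl49, chosen after its values were seen, was the widest exception, at 0.13 ± 0.18 for its brightest probe and at -0.37 ± 0.18, -0.10 ± 0.14 and -0.03 ± 0.14 for the others.

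NRF-1, GABP and YY1 are transcription factors known to act on nuclear genes of mitochondria. RefSeq windows of 250 bases before and 50 after the start of transcription (build GRCm38.p6) matched 67 of the 76 genes, with 73 windows. They were searched on both strands for GCGCATGC, the site of NRF-1, for CCGGAAG, the site of GABP and other ETS factors, and for AAGATGGC, the site of YY1. The NRF-1 letters stood in 11% of the members' windows and in 2.71% of all 32851 windows. The ETS letters stood in 35.6% and 8.86%, and the YY1 letters in 16.4% and 2.75%. Windows of protein-coding genes alone held them in 3.51%, 11.6% and 3.05%, and those of cytosolic ribosomal protein genes in 3.45%, 32.8% and 12.1%.

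Windows of 6 genes are shown because they belong to Mrps22, which was called, to Mrpl51, Mrps25 and Mrpl18, which have the lowest p beside it in the step from 17 to 28 months, to Mrpl9, which ran the other way, and to Mrps11, which shares its promoter with another member. Capitals mark the letters of a motif, and each window runs along the gene's own strand.
Mrps22: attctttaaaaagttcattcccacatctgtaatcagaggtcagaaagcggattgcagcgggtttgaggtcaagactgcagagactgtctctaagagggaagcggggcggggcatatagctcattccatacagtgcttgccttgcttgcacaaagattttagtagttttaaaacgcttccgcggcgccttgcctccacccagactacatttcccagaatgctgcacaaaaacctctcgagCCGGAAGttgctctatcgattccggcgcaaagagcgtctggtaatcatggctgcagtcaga
Mrpl51: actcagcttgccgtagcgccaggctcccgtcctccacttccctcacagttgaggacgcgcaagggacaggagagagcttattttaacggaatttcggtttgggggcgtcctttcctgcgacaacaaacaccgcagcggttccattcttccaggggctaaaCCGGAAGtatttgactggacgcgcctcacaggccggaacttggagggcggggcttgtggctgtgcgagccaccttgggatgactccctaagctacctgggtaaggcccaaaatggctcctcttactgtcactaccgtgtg
Mrps25: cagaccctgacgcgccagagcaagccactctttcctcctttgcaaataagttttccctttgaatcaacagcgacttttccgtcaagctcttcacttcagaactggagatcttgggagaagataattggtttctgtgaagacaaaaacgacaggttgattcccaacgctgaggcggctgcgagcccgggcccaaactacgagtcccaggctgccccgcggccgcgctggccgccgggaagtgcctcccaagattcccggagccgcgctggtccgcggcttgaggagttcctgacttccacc
Mrpl18: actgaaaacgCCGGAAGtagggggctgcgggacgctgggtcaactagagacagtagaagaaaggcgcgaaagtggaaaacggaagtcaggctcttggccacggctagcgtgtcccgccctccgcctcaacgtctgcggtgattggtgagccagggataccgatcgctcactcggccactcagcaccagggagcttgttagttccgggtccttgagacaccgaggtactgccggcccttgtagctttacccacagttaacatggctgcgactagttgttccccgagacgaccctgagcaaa
Mrpl9: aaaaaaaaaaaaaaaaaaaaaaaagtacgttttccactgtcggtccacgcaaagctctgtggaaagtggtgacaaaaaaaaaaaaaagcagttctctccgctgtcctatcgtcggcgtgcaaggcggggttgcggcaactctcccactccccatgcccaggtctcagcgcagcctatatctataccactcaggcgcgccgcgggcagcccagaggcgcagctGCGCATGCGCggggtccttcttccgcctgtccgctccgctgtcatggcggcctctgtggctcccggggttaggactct
Mrps11: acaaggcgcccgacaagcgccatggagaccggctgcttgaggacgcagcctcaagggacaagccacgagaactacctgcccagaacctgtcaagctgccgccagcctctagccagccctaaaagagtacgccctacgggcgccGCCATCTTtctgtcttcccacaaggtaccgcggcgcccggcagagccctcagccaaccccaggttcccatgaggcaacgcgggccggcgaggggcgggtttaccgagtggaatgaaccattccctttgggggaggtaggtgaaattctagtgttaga

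The window of Mrps22 (chr9:98601630-98601929, minus strand) holds the ETS letters from position -11 relative to the start of transcription, and that of Mrpl51 (chr6:125191950-125192249, plus strand) from position -90. In Mrpl18 (chr17:12916042-12916341, minus strand) they begin at position -240, and Mrps25 (chr6:92183974-92184273, minus strand) has none of the 3 motifs. Mrpl9 (chr3:94443086-94443385, plus strand) has the NRF-1 letters on both strands in 1 overlapping stretch. Mrps11 (chr7:78782881-78783180, plus strand), a homologue of bacterial S11, lies head to head with Mrpl46, and the windows of both genes overlap by 141 bases. Mrps11 and Mrpl46 gave -0.17 ± 0.14 and -0.16 ± 0.13 in old against young (adjusted p = 0.532 and 0.525 by limma).

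Among the 63 genes with both a window and a measured level, the median difference in old against young was -0.19 over 25 genes with the ETS letters and -0.13 over 38 without. Without old replicate 3 these medians were -0.08 and -0.07. The 7 genes with the NRF-1 letters had -0.14 and the 56 without -0.17, and the medians were -0.0096 and -0.08 in the absence of that array. These values describe the letters in the windows alone and were not tested.

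Old against middle-aged muscle covers the step from 17 to 28 months. The members had a median difference of -0.13, with 58 of 70 lower in old, and the median over all features was -0.02. By limma 0 of 70 genes were called, against 0.317% of all features. The methods' own thresholds, which use an unadjusted p, gave 5, with no share over all features beside that count. At an unadjusted p under 0.05 there were 7 of 70 (10%), against 12.2% of all features, and all 7 were lower in old, against 6.76% in that direction. The arrays did not overlap in 3 of 70 genes, Mrpl51, Mrps22 and Mrps25, or 4.29% of members, against 1.5% of all features and 0.813% in the lower direction. Old muscle is common to this comparison and to that with young muscle, so the 2 are not independent. When old replicate 3 was left out, the median was -0.04, with 48 of 70 lower, and 0 genes were called, against 0.617% of all features.

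The lowest p in this step was that of Mrps25, at -0.35 ± 0.12 (adjusted p = 0.241 by limma), with middle-aged values of 8.19, 8.08, 7.96, 8.29 and 8.18 all above the 5 old ones. The margin was narrow, with middle-aged replicate 3 at 7.955 and old replicate 2 at 7.954. Other Mrps25 probes past the filter gave -0.02 ± 0.16 and -0.21 ± 0.13. Mrps22 gave -0.31 ± 0.11 (adjusted p = 0.249) and Mrpl51 -0.35 ± 0.13 (adjusted p = 0.297). Mrpl18, a protein of the central protuberance whose bacterial homologue binds the smallest ribosomal RNA, gave -0.34 ± 0.12 (adjusted p = 0.255). Its old values were 9.92, 10.03, 9.41, 9.88 and 9.64, and its middle-aged values 10.05, 10.02, 10.15, 10.11 and 10.25. Old replicate 2 lay just above the lowest middle-aged array and the other 4 old arrays lay below all of them. Without old replicate 3 Mrpl18 gave -0.25 ± 0.10.

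Middle-aged against young muscle covers the step from 5 to 17 months. The members had a median difference of -0.03, with 43 of 70 lower in middle-aged muscle, while the median over all features was 0.00. By limma 0 of 70 were called, against 0.0106% of all features, and 0 of 70 reached an unadjusted p under 0.05, against 5.07%. The methods' thresholds also gave 0. The arrays overlapped in all 70 genes, while 2.46% of all features did not overlap.

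The genes with the lowest p in this step were Mrpl20, a homologue of a bacterial protein needed early in assembly of the large subunit, Mrpl34, Mrpl58 and Mrps24. Mrpl20 gave -0.29 ± 0.17, from 9.26, 9.44, 9.62, 8.84 and 9.02 in middle-aged arrays and 9.43, 9.65, 9.57, 9.38 and 9.62 in young arrays. Middle-aged replicates 1, 4 and 5 lay below the young arrays and the other two among them. Mrpl34 gave -0.27 ± 0.18, and its middle-aged replicate 5 was at 9.50 against 10.38 to 10.60 for the other 4. Without that array Mrpl34 gave -0.08 ± 0.14. Mrpl58, which frees peptides from stalled ribosomes, gave -0.23 ± 0.17, and Mrps24, a homologue of bacterial S3, gave -0.21 ± 0.16. With all arrays, these 4 genes had an adjusted p of 1 by limma.

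Set against each other, the later step minus the earlier one had a median of -0.13 over the members, and 47 of 70 were lower in it. By limma 0 of 70 were called for the difference between the steps, against 0.0211% of all features, and 1 of 70 had an unadjusted p under 0.05, against 4.56%. That gene was Mrpl18, which was 0.11 ± 0.12 in middle-aged against young muscle and -0.34 ± 0.12 in old against middle-aged muscle, a difference of -0.45 ± 0.20 (adjusted p = 0.973). Its other probe, detected on 6 arrays, gave 0.05 ± 0.16 in the earlier step and 0.06 ± 0.16 in the later one. Mrps25 gave -0.36 ± 0.20, Mrps35 of the small subunit head -0.52 ± 0.32 and Mrpl40 of the central protuberance -0.34 ± 0.23, all with the same adjusted p. With old replicate 3 left out, the median was -0.04. The 3 group means were ordered downward with age, young then middle-aged then old, in 35 of the 70 genes and upward in 4. These counts include old replicate 3, and they were not made without it or over all features.

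The spread within a group was wider in old muscle. The median SD of a member was 0.122 in young, 0.154 in middle-aged and 0.285 in old arrays, and 61 of 70 genes had a higher SD in old than in young. Without old replicate 3 the median old SD was 0.161, and 39 of 70 genes had a higher SD in old than in young.

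The low array was not low for the mitochondrial ribosome alone. On old replicate 3 the median deviation was -0.49 over 55 proteins of the cytosolic ribosome, -0.53 over 33 subunits of complex I and -0.37 over 34 nuclear subunits of complexes III to V. Middle-aged replicate 5 was low for the same 3 groups, at -0.43, -0.33 and -0.38, but the mitochondrial ribosomal proteins had -0.02 there. Single members were low on that array all the same, among them Mrpl52, chosen after its values were seen, at 7.84 against 8.46 to 9.48 on the other 14.

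**Figure D4:**
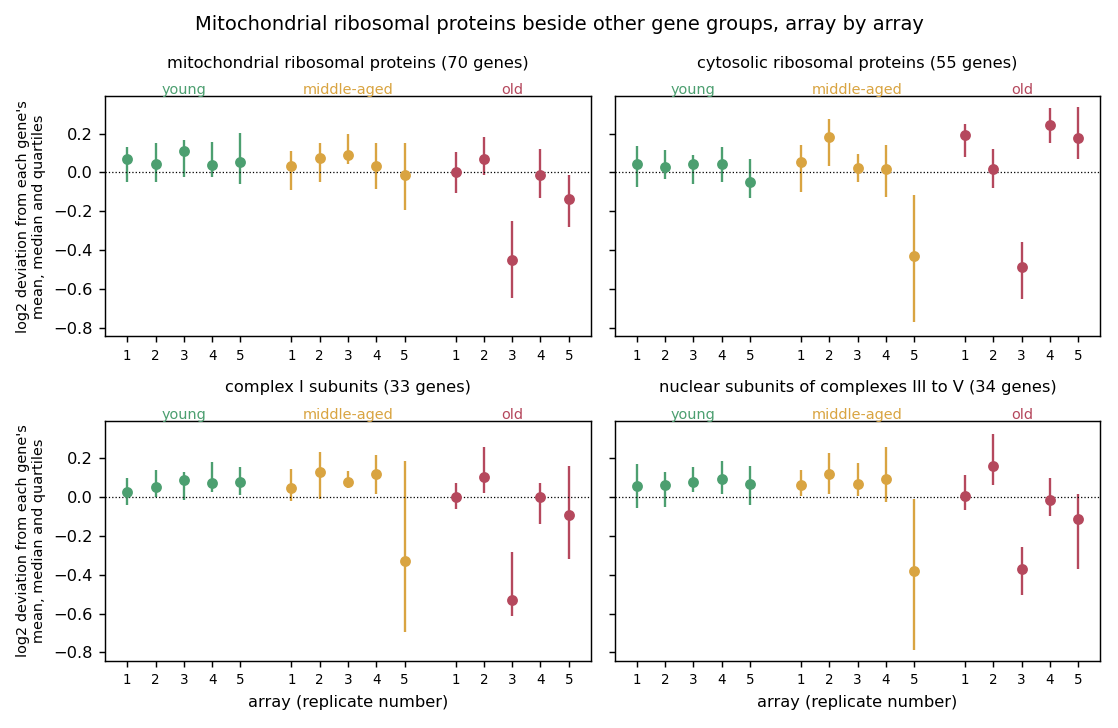
Median (points) and quartiles (bars) of the deviation of genes from their own means on the log2 scale, by array, for the mitochondrial ribosomal proteins and 3 other groups of genes. All 4 groups are low on old replicate 3, and on middle-aged replicate 5 the median of the mitochondrial ribosomal proteins is -0.02 while those of the other 3 groups lie between -0.43 and -0.33.

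In old against young muscle, cytosolic ribosomal protein genes had a median difference of 0.01, with 26 of 55 lower, and 1 was called, Rpl3, which rose (0.69 ± 0.15, adjusted p = 0.0161 by limma). When old replicate 3 was left out, their median was 0.14, with 7 of 55 lower, and that of the mitochondrial ribosomal proteins was -0.06, a difference between the groups that was not tested. Complex I subunits had a median of -0.16, with 30 of 33 lower, and the nuclear subunits of complexes III to V had -0.12, with 30 of 34 lower. In the absence of old replicate 3 their medians were -0.08, with 27 of 33 lower, and -0.06, with 24 of 34 lower. In both groups 0 genes were called by limma, and 1 of 33 and 0 of 34 reached an unadjusted p under 0.05.

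Other genes serve the mitochondrial ribosome without being part of it. By limma 0 of 10 translation factors, 0 of 11 aminoacyl-tRNA synthetases, 0 of 20 genes of ribosome assembly and rRNA modification and 0 of 13 genes of mitochondrial transcription and RNA stability were called in old against young. At an unadjusted p under 0.05 there were 2 of 10, 2 of 11, 4 of 20 and 1 of 13, against 18.9% of all features. The medians of these groups were -0.05, -0.01, -0.07 and 0.05, with 7 of 10, 6 of 11, 12 of 20 and 4 of 13 lower. In the absence of old replicate 3 the medians were -0.10, 0.03, -0.05 and -0.03, with 7 of 10, 5 of 11, 11 of 20 and 7 of 13 lower, so that the sign turned for the synthetases and for transcription and RNA stability. The gene with the lowest p among them was Noa1, a GTPase of mitoribosome assembly, at -0.31 ± 0.10 (adjusted p = 0.0867). Tufm, the elongation factor that brings tRNAs to the ribosome, gave -0.21 ± 0.10 (adjusted p = 0.241), Wars2, the tryptophan enzyme, -0.63 ± 0.28 (0.224) and Tefm, an elongation factor of mitochondrial transcription, -0.24 ± 0.10 (0.183). The other translation factor at an unadjusted p under 0.05, Mtif3, was higher in old muscle (0.26 ± 0.12, adjusted p = 0.243 by limma). All others at that p in these groups were lower. Of 9 regulators of mitochondrial biogenesis 0 were called, and the lowest p was that of the nuclear receptor Esrra (-0.38 ± 0.20, adjusted p = 0.299).

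Markers of other cells moved with age in the same muscles. Of 9 measured of 11 macrophage markers, 4 rose in old against young (Adgre1, Lyz2, C1qb and Lgals3) and 6 did so without old replicate 3. The median of the 9 was 0.87, and 0.98 without that array. Their summed intensity lay between 1132 and 1836 in young, 1440 and 2426 in middle-aged and 2313 and 4136 in old arrays. Of 7 measured of 8 fibroblast markers, 3 fell (Col1a1, Col1a2 and Thy1), and 2 did so without old replicate 3, where Thy1 had an adjusted p of 0.0824 by limma. Of the other 4, Col3a1 gave -0.88 and Dcn -0.11, and Lum and Pdgfra had higher means in old muscle (0.28 and 0.10). The median of the 7 was -0.88, and -0.81 without that array. Their summed intensity was 11874 to 16220 in young, 12435 to 16503 in middle-aged and 8953 to 14397 in old arrays. The summed intensity of the 70 mitochondrial ribosomal proteins lay between 111819 and 115541 in young, 101489 and 115923 in middle-aged and 76878 and 116331 in old arrays. By limma 0 of 7 endothelial, 0 of 3 fat cell, 0 of 3 erythroid and 0 of 9 slow fibre genes that were measured were called in old against young, with 2, 0, 0 and 1 at an unadjusted p under 0.05. Their medians were -0.16, 0.84, 0.01 and 0.64, and -0.09, 1.17, -0.02 and 0.56 without old replicate 3. Of the slow fibre genes 8 of 9 had a higher mean in old muscle, as had 3 of 3 fat cell markers. In middle-aged against young muscle the fat cell markers had a median of 1.49, with 0 called and 3 of 3 higher at an unadjusted p under 0.05, and sums of 259 to 480 in young, 429 to 3017 in middle-aged and 311 to 1701 in old arrays. The part of these cells in the results was not tested.

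Of the 76 genes, 6 did not pass the filter. Mrpl15, Mrpl19, Mrpl21 and Mrpl32 of the large subunit and Mrps36 were detected on 0 arrays, and Mrps14 of the small subunit head on 1, a young one. Mrps36 is named as a ribosomal protein but serves as a link in the 2-oxoglutarate dehydrogenase complex. Nothing can be said of their change here, and 69 of the 70 genes that passed were detected on all 15 arrays by a probe of theirs.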

How the data were processed

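RNA of 15 gastrocnemius samples was hybridised to Illumina MouseRef-8 arrays and read with GenomeStudio 2011.1, per the submitters' processing notes. The deposited intensity of each probe had neither background subtraction nor normalisation, and the authors deposited a detection p-value beside it. A further deposited table held a score, each array's natural log intensity as a Z score, which differed from one recomputed from the intensities by at most 0.000924. Gene names came from the platform's annotation (23978 of 25697 probes named). The slide and scan date of the arrays were not given in the sources used here, so no batch could be tested.

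Background correction and quantile normalisation used neqc of limma 3.58.1 in R 4.3.3, with the background taken from the detection p-values and an offset of 16. A gene was represented by the probe with the highest mean among those detected (p under 0.05) on at least 5 arrays. The 15 arrays were fitted together, with a mean for each age, by lmFit and eBayes with an intensity trend. Tests were two-sided, and p-values were adjusted by Benjamini-Hochberg over all 9470 features. Each adjusted p-value comes from limma, and a called gene has one under 0.05. The model was tested on simulated data.

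Members named were the called ones or the 4 with the lowest p in each comparison, those whose old and young arrays did not overlap, those not detected, and a set with known roles. Of other groups of genes, up to 3 called members or the 1 with the lowest p are named. The members and lists were chosen with earlier results of these data known. Alternatives were other background corrections, scalings, filters, probe rules and fits, the deposited scores, the methods' thresholds (Z ratio over 1.5 and unadjusted p under 0.05) and leaving out each array. Promoter windows came from RefSeq, build GRCm38.p6. Mrpl41 and Mrpl44 were not analysed here.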

Additional observations from a re-analysis of the deposited data

Results flagged for a closer look

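In groups of 5 arrays, 1 value stood apart from the other 4 in 7 of the 66 groups examined over 21 named members and the median of the 70 genes, where chance gives about 1 in 20. Of these 7, 3 were on old replicate 3: Mrps28 at 9.50 (the other old arrays lay between 10.23 and 10.42), Mrps18a at 9.72 (10.26 to 10.39) and Mrpl40 at 8.51 (9.02 to 9.21). On middle-aged replicate 5, Mrps12 was at 10.39 (11.13 to 11.41), Mrps18c at 9.52 (10.10 to 10.28) and Mrpl34 at 9.50 (10.38 to 10.60). Mrps5 was at 8.32 on young replicate 1 (8.93 to 9.09). All 7 values were low ones. The causes were not tested.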

How the results depend on the processing

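The 1 gene called in old against young became 0 with median scaling, with no detection filter, with every probe by itself, with only the groups compared, and with the replicate number as a block, 3 with array weights, 5 with the methods' thresholds, and 2 without both old replicate 3 and middle-aged replicate 5. Leaving out 1 array at a time gave between 0 and 3: 0 without any 1 of the young or middle-aged arrays or of old replicates 1 and 4, 2 without old replicate 2 or 3, and 3 without old replicate 5. In old against middle-aged muscle the methods' thresholds gave 5 genes and all other settings 0. The methods' thresholds use an unadjusted p, and these counts are not set against the share of all features called in each setting. No paired design is given by the labels. The correlation of same-numbered arrays ran from -0.50 to 0.40, with 3 of 15 pairs over 0.1. It was not set against differently numbered arrays, so it cannot decide whether the numbers pair the samples. Mrps22 kept a lower level in old throughout, with adjusted p from 0.0304 to 0.319.

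The members' median difference kept its sign in all 3 comparisons. In old against young it lay between -0.22 (median scaling) and -0.06 (without old replicate 3). The SD of the members' median between arrays of a group was 0.124, of which old replicate 3 made a large share, and 0.0581 without that array, less than the move its removal made. Genes near 0 changed sign. Mrps30 was -0.0803 with median scaling, -0.00063 with Z scores and -0.00068 with deposited scores, and lay between -0.0651 (without old replicate 1) and 0.101 (without old replicate 3) with 1 array left out. Mrps18b was 0.00686 with array weights and 0.0751 without both low arrays, and between -0.0901 and 0.0749 with 1 array left out. Mrps18c was 0.0327 with array weights and 0.0427 without both low arrays, and between -0.126 and 0.0425 with 1 array left out, the upper ends of both being without old replicate 3. The cause was not tested. Over all named members and settings, 683 of 724 values kept direction and call. Nearly all of these results were uncalled in the main fit, so the count says little about calls. Mrps22 in old against young, the 1 called result, kept its call in 11 of 28 settings and lost it in 17. The median standard error of a member's difference, 0.142, limits what could be called.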
